A study of Mus musculus with 35 samples.

Results

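Genes of the trophoblast fate were examined in mouse embryonic stem cells (ESCs) after induced deletion of *Dnmt1*, whose product copies DNA methylation onto new strands. The members were 6 transcription factors of the trophoblast (*Elf5*, *Cdx2*, *Eomes*, *Hand1*, *Tfap2c* and *Gata3*) and 4 simple keratins (*Krt7*, *Krt8*, *Krt18* and *Krt19*). They were chosen by name, and the difference between KO and WT on each day was among the values that chose them. That difference is therefore given for the members as a description, with no test. All 10 had a row among the 26127 in the table, 9 under the exact symbol and *Tfap2c* under its older symbol *Tcfap2c*.

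The trophoblast is the first lineage to leave the pluripotent cells of the embryo and forms the placenta, and ESCs contribute to it only rarely. *Cdx2*, *Eomes*, *Elf5*, *Gata3* and *Tfap2c* keep trophoblast stem cells in their state, and *Hand1* drives their differentiation into giant cells. *Elf5* is known as a methylation gatekeeper of this fate, because its promoter is methylated in ESCs and unmethylated in trophoblast stem cells. *Krt8* (type II) and *Krt18* (type I) pair to build the filaments of simple epithelia, including trophectoderm, and *Krt7* (type II) and *Krt19* (type I) mark trophoblast and other simple epithelia.

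Ribosomal RNA was removed from total RNA, which was then sequenced in 17 WT and 17 *Dnmt1* KO libraries on days 0, 1, 3, 6, 9, 11, 17 and 25, with 2 libraries for each genotype and day and 3 at day 1, and in 1 *Dicer* KO library. Per the labels the cells were ESCs of background strain E14, whereas the study's methods describe Dnmt1 loxP/loxP ESCs of strain C57BL/6, with Cre induced by tamoxifen and culture in serum and LIF with or without feeders. The floxed line is taken as the source of both genotypes. Whether the WT cells received tamoxifen is not given in the sources used here, and nothing says that the libraries of a group came from separate cultures, so p-values measure the spread between libraries, which may be technical. The *Dicer* KO line was made by genome editing of the same floxed line.

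Reads recovered from the RPKM (a level per length, reads divided by exon kilobases and by the mega-reads of the library) showed between 24.3 and 72.1 mega-reads per library, of which between 5.20 and 18.0 fell in exons. The exon share was between 20.7% and 22.4% in 20 libraries (days 0, 3, 6 and 9 and the first 2 of day 1) and between 44.7% and 49.9% in the other 15, so levels are compared within these sets. *Dnmt1* RNA followed the labels except at day 6, where it was 3.31 ± 0.133 RPKM (SD, n = 2) in the libraries labelled WT and 20.3 ± 0.195 in those labelled KO. Means on the other days after day 0 were between 14.1 and 33.2 RPKM in WT and between 2.81 and 4.67 in KO. Day 6 is given as "labelled WT" and "labelled KO" and stays out of pooled values unless stated. All 10 pluripotent cell markers passed the filter on low values used for testing (above 1 RPKM in at least 2 libraries).

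The regulatory sequence upstream of 3 members is shown because promoter methylation is the known control of *Elf5*, and because *Krt8* and *Krt18* were the most abundant members. The 250 bases before each start were taken from RefSeq (build GRCm38.p6), 5′ to 3′ on the gene's strand, with each CpG, the dinucleotide that DNMT1 keeps methylated, in capitals. The windows are chr2:103411848-103412097 (plus strand) and chr2:103423818-103424067 (plus strand) for the 2 starts of *Elf5*, chr15:102004343-102004592 (minus strand) for *Krt8* and chr15:102027966-102028215 (plus strand) for *Krt18*.
Elf5 upstream start: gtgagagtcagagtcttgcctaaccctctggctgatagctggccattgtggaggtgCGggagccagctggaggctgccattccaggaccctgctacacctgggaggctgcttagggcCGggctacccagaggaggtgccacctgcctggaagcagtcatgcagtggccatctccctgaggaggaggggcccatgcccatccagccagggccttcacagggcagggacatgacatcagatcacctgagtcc
Elf5 downstream start: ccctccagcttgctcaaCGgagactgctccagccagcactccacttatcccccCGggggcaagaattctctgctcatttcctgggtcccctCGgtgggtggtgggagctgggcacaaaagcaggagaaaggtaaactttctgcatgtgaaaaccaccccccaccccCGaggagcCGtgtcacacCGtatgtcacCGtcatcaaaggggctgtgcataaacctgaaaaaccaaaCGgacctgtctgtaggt
Krt8: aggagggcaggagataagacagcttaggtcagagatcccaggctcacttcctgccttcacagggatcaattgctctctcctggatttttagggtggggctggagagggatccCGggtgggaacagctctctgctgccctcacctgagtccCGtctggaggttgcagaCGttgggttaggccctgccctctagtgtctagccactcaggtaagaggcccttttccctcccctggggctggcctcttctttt
Krt18: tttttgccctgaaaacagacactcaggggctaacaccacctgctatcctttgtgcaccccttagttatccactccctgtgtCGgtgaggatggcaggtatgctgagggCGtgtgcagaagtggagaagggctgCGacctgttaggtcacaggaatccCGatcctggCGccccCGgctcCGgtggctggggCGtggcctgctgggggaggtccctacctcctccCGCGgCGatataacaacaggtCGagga

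The upstream *Elf5* window held 2 CpG and the downstream one 8, against a median of 6 over 32851 promoters. 81.2% of promoters had at least as many as the upstream window. *Krt8* had 3 CpG and *Krt18* 12, although the 2 genes lie side by side on chromosome 15. Windows were found for 7 members, and of these *Gata3* had the most CpG, with 19. *Krt7* had 16, *Cdx2* 13 and *Eomes* 8. No window of a member held TATAAA or TGACTCA on either strand, which occur in 12.4% and 4.46% of all promoters of this length. DNA methylation was not analysed here, so the CpG counts say nothing about its state in these cells.

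In NCBIM37, the build of the RPKM table, *Krt8* lies at chr15:101827142-101834773 (minus strand) and *Krt18* at chr15:101858647-101862457 (plus strand), with starts 23874 bases apart and pointing away from each other. *Krt7* lies on the same chromosome at chr15:101241474-101260744 and *Krt19* in the type I cluster at chr11:100002124-100009979. *Elf5* spans chr2:103251845-103291146, *Gata3* chr2:9778705-9811661 and *Tfap2c* chr2:172375093-172384122. *Cdx2* is at chr5:148112381-148118846, *Eomes* at chr9:118387330-118395250 and *Hand1* at chr11:57642207-57646320. *Gata3* overlaps 2 genes of the other strand and 1 of its own, and whether strand was used in counting is not given, so its low values may hold reads of those neighbours.

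*Krt8* and *Krt18* were by far the most abundant members, and both were several-fold higher in KO at days 11 and 17. At day 17, *Krt8* was 32.6 and 28.0 RPKM in WT and 142 and 154 RPKM in KO. The KO mean was 148 ± 8.60 and the WT mean 30.3 ± 3.25 (SD, n = 2 each), a 4.89-fold difference. Every KO library was thus above every WT library by a gap much wider than the spread within a group. *Krt18* was 36.2 and 29.9 RPKM in WT and 142 and 140 RPKM in KO on that day, 4.28-fold higher in KO. In bulk samples, more cells with keratin RNA and more keratin RNA per cell cannot be told apart.

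At day 11, *Krt8* was 14.4 RPKM in both WT libraries and 63.8 and 52.3 RPKM in KO. *Krt18* was 18.2 and 19.6 RPKM in WT and 73.4 and 53.8 in KO, so the KO libraries differed more from each other than the WT libraries, without reaching them. At day 25 *Krt8* overlapped between genotypes, with 26.3 and 26.9 RPKM in WT and 27.3 and 26.2 in KO. *Krt18* was 15.9 and 14.7 RPKM in WT and 18.57 and 17.06 in KO on that day, 1.16-fold higher in KO. Within the high exon share libraries, the KO level of *Krt18* thus ran from day 25 over day 11 to day 17, and that of *Krt8* in the same order, with no overlap between days.

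The earlier days showed a smaller difference of the same direction. At day 3, *Krt8* was 11.5 and 13.1 RPKM in WT and 24.5 and 23.9 in KO, 1.97-fold higher in KO. At day 9 it was 4.47 and 5.10 RPKM in WT and 8.64 and 9.17 in KO, 1.86-fold higher in KO. *Krt18* was 1.72-fold higher in KO at day 3 and 1.42-fold at day 9, and KO and WT libraries did not overlap on either day. At day 0, *Krt8* was 4.78 and 5.37 RPKM in WT and 5.53 and 4.58 in KO, and at day 1 both keratins overlapped as well. The third day 1 library of each genotype stood apart, with *Krt8* at 36.9 RPKM in WT and 25.17 in KO, against 8.08 to 9.73 in the other 4. At day 6, *Krt8* was 10.5 and 10.3 RPKM in the libraries labelled WT and 8.54 and 8.26 in those labelled KO, and *Krt18* overlapped between the labels.

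*Krt19* and *Krt7* had the same time course at lower levels. *Krt19* was 2.93 and 3.22 RPKM in WT and 16.5 and 19.7 in KO at day 17, a 5.90-fold difference. At day 11 it was 2.35 and 2.18 RPKM in WT and 14.2 and 8.38 in KO, 4.97-fold higher in KO. *Krt19* still differed at day 25, with 1.92 and 2.23 RPKM in WT and 4.18 and 3.50 in KO. *Krt7* was 0.335 and 0.333 RPKM in WT and 2.53 and 2.46 in KO at day 17, which was 7.47-fold and the largest ratio of the keratins on that day. At day 3 it was 0.213 and 0.208 RPKM in WT and 0.681 and 0.547 in KO, and it was 0.151 and 0.162 in WT and 0.229 and 0.194 in KO by day 25.

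**Figure D1:**
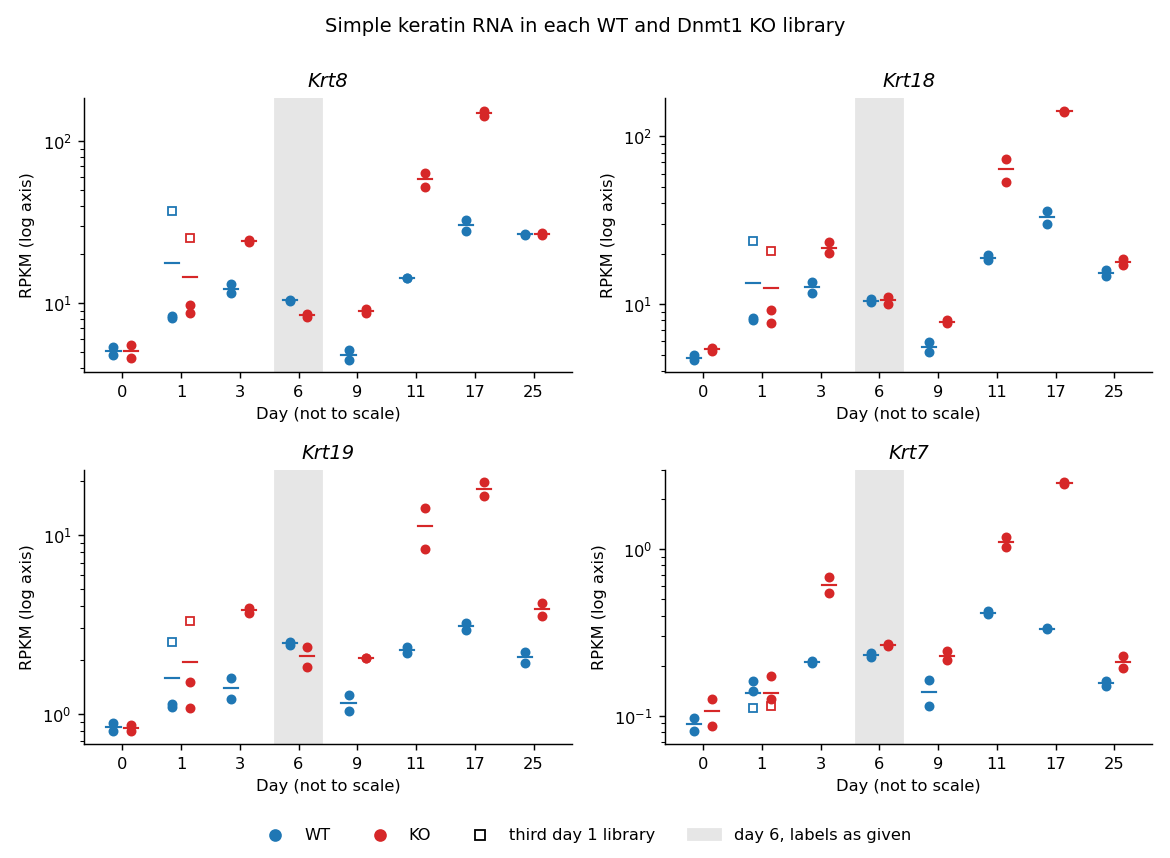
Level of *Krt8*, *Krt18*, *Krt19* and *Krt7* (RPKM, log axis) in each WT (blue) and KO (red) library by day, with a bar at each group mean; open squares are the third day 1 libraries and the grey band is day 6 with its labels as given. The KO libraries lie above the WT libraries for each keratin at days 3, 9, 11 and 17, and *Krt8* overlaps at day 25.

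The ratio of *Krt8* to *Krt18* RPKM was near 1 on most days. It was 0.902 and 0.937 in WT and 0.998 and 1.101 in KO at day 17, and 0.790 and 0.732 in WT and 0.869 and 0.973 in KO at day 11. Day 25 stood apart in both genotypes, with 1.65 and 1.83 in WT and 1.47 and 1.54 in KO. The third WT library of day 1 was also high, at 1.56.

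**Figure D2:**
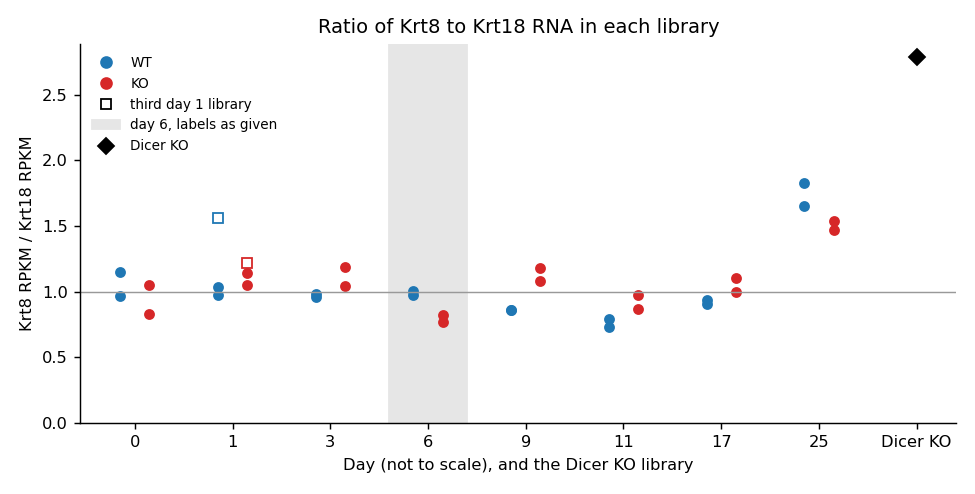
Ratio of *Krt8* to *Krt18* RPKM in each WT (blue) and KO (red) library by day and in the *Dicer* KO library (diamond); the grey line marks equal RPKM. The ratio is between 0.732 and 1.22 in all libraries but the third WT library of day 1, those of day 25 and *Dicer* KO.

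Over the 34 WT and KO libraries, the genes whose median-centred log2 level was most like that of *Krt18* were *Krt8* (Pearson r = 0.946), *Prss8* (0.914), *Krt19* (0.898), *Mbnl3* (0.891) and *3830417A13Rik* (0.864). These are descriptions over libraries that share days and an exon share set, and the centred level of *Krt18* itself had r = 0.5004 with the library median that was subtracted. *Krt7* ranked 25 with r = 0.773, *Hand1* 151 with 0.667 and *Tfap2c* 1063 with 0.483, whereas *Eomes* had r = -0.20. For *Elf5* the highest were *Ccdc80* (0.939), *Crocc* (0.919), *Rpl7a-ps5* (0.915), *Rpl21* (0.913) and *Anxa2* (0.913). *Elf5* was close to 0 throughout, and its centred level had r = -0.89 with the same library median, so these 5 names describe the centring more than the gene.

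*Elf5* itself stayed at or near 0 RPKM. In the 17 WT libraries it had 11 reads in all and at most 3 in any library, and 11 libraries had none. In the 17 KO libraries it had 54 reads in all, and 13 had at most 3. At day 17 it had 0 and 0 reads in WT, which allows up to 3 reads in each, and 20 and 9 reads in KO (0.110 and 0.0501 RPKM). Against the floor of 3 reads in each WT library this was at least 4.66-fold higher in KO. At day 11 there were 3 and 1 reads in WT and 9 and 1 in KO, and at day 9 0 and 0 in WT and 4 and 1 in KO. At day 25 one KO library had 3 reads and the other 3 libraries had none, so no difference could be seen at this depth.

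Where both genotypes had reads, *Hand1* was the regulator with the widest relative difference, which came at day 11. At day 17 *Hand1* was 0.152 and 0.336 RPKM in WT and 1.57 and 1.34 in KO, 5.97-fold higher in KO. At day 11 it had 1 and 0 reads in WT and 23 and 60 in KO (0.366 and 0.992 RPKM), and the ratio of read rates was 95.5 with a 95% exact interval of 16.7 to 3816, which covers counting error only. At days 3 and 9 the KO libraries were above the WT libraries, with 0.149 and 0.221 RPKM against 0.0626 and 0 at day 3. By day 25 the libraries overlapped, with 6 and 7 reads in WT and 3 and 11 in KO. At day 6 the libraries labelled WT had 12 and 15 reads and those labelled KO had 0 and 0.

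*Tfap2c*, which acts in trophoblast and in germ cell precursors, was the only regulator above 1 RPKM in all 34 libraries. At day 17 it was 1.76 and 2.01 RPKM in WT and 8.12 and 7.98 in KO, 4.26-fold higher in KO. At day 11 it was 2.84 and 3.25 RPKM in WT and 5.28 and 7.83 in KO, and at day 25 1.79 and 1.34 in WT and 3.178 and 3.202 in KO. It was thus higher in KO at days 3 to 25 on each day whose *Dnmt1* RNA followed the labels, by 1.52-fold at day 3 and 1.73-fold at day 9. At day 6 it was 2.91 and 3.33 RPKM in the libraries labelled WT and 2.37 and 2.64 in those labelled KO.

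*Eomes* and *Cdx2*, both of which also act in mesoderm or gut formation, did not share this course on every day. *Eomes* was 1.07 and 1.17 RPKM in WT and 0.880 and 0.985 in KO at day 11, below WT. At day 17 it was 0.349 and 0.371 RPKM in WT and 0.529 and 0.669 in KO, and at day 25 0.369 and 0.284 in WT and 0.655 and 0.707 in KO, 2.09-fold higher in KO. *Cdx2* had 4 and 0 reads in WT and 7 and 6 in KO at day 9, and 7 and 1 in WT and 7 and 17 in KO at day 11. At day 17 it had 15 and 11 reads in WT and 24 and 21 in KO, 1.67-fold higher in KO by RPKM. The KO libraries of *Cdx2* were above the WT libraries in RPKM on each of these days, narrowly at day 11 (0.0985 against 0.0952). At day 25 its order turned, with 55 and 61 reads (0.810 and 0.994 RPKM) in WT and 11 and 1 (0.163 and 0.0144 RPKM) in KO. The ratio of read rates at day 25 was 0.0979 (95% exact interval 0.0492 to 0.178, counting error only).

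*Gata3* was low in every library, with at most 0.139 RPKM in WT and 0.236 in KO. At day 11 it had 2 and 10 reads in WT and 17 and 26 in KO, and at day 17 10 and 10 in WT and 29 and 21 in KO. The KO libraries were above the WT libraries on both days. At day 25 it had 16 and 15 reads in WT and 3 and 25 in KO, which overlapped.

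**Figure D3:**
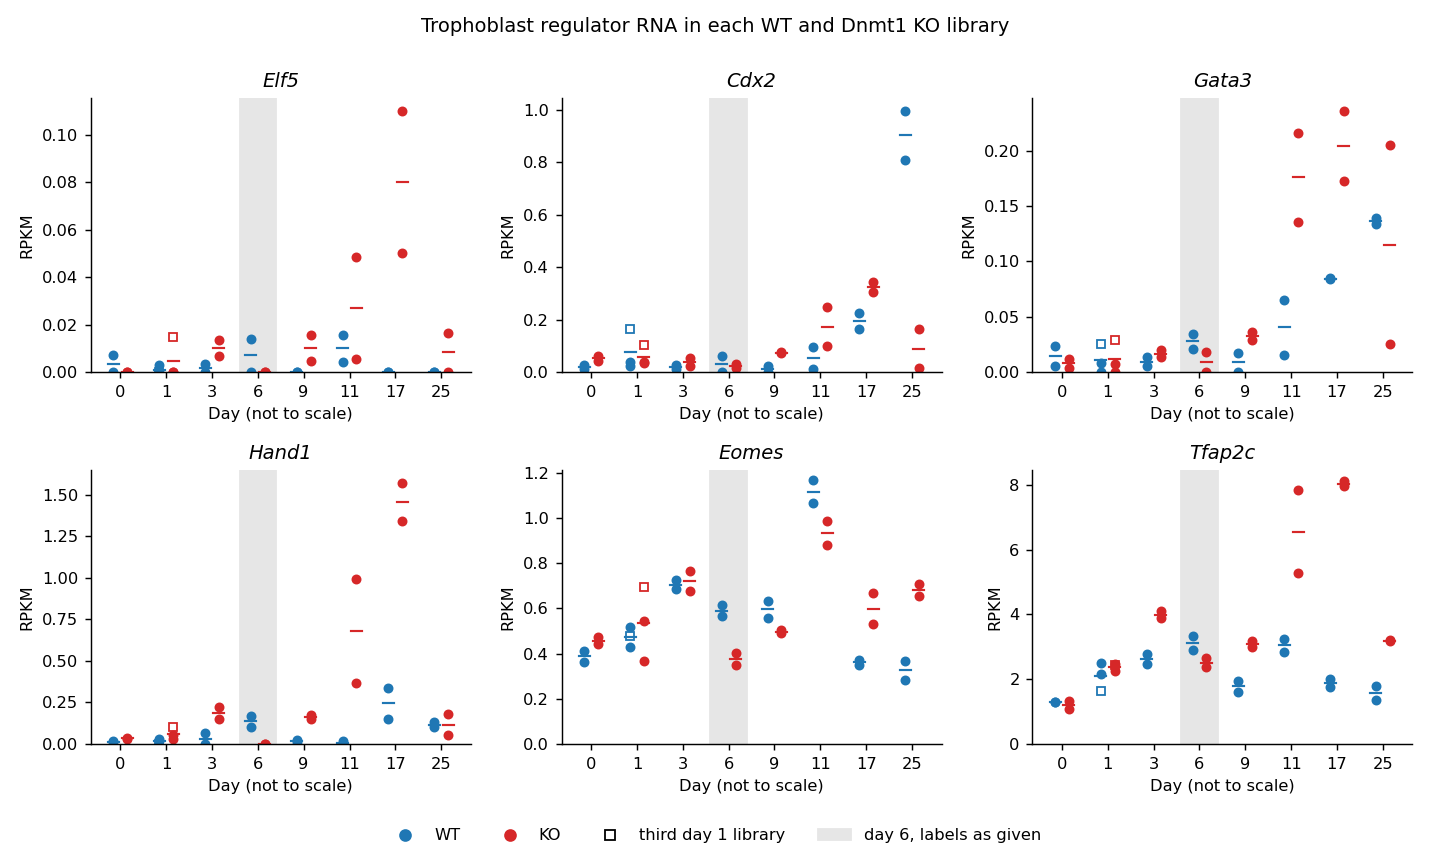
Level of the 6 transcription factors (RPKM, linear axis from 0, a scale for each panel) in each WT (blue) and KO (red) library by day, with a bar at each group mean; open squares are the third day 1 libraries and the grey band is day 6 with its labels as given. *Elf5*, *Hand1* and *Tfap2c* peak in the day 17 KO libraries, and *Cdx2* in the day 25 WT libraries.

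On the log2(RPKM + 0.1) scale, where the pseudocount of 0.1 compresses low values, the differences at day 17 between KO and WT ran from 2.58 (SE 0.190) for *Krt7* and 2.52 (SE 0.361) for *Krt19* down to 0.53 for *Cdx2*. The median log2 level of the tested genes was itself 0.18 higher in KO at day 17 and 0.11 at day 11, and these differences are not relative to it. At day 17 every KO library was above every WT library for 10 of the 10 members, against 42.6% of all genes tested. At day 9 this held for 9 members, against 39.1%, at day 11 for 8, against 31.9%, and at day 25 for 5, against 49.5%. At day 3 it held for 7, against 34.9%, at day 0 for 4, against 21.5%, and at day 1 for 0, against 2.06%. At day 6 it held for 1, against 28.4%, while 6 members were lower in every library labelled KO than in every one labelled WT, against 41.2%. The members were chosen with these values in view, and nothing is read from the shares.

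**Figure D4:**
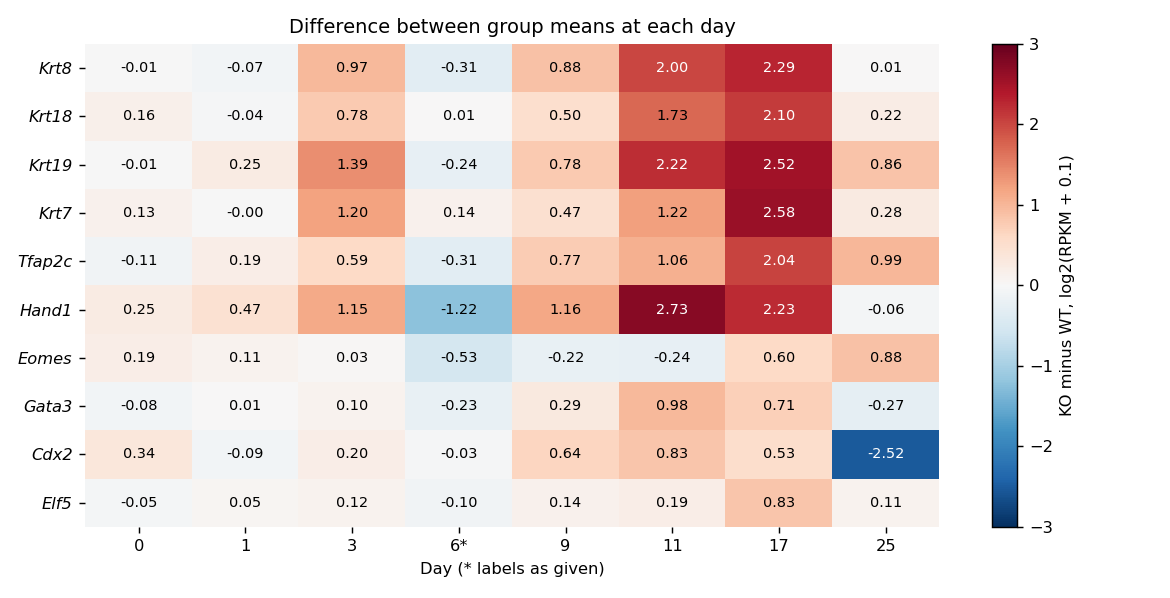
Difference between the KO and WT group means of log2(RPKM + 0.1) for each member (rows) and day (columns), with red for higher in KO, blue for lower and the value in each cell; the day with an asterisk is given with its labels. The keratins, *Tfap2c* and *Hand1* are reddest at days 11 and 17, and *Cdx2* is the bluest cell, with -2.52 at day 25.

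limma was fitted over the 34 libraries for 11615 genes, and 7 members passed its filter on low values. *Elf5*, *Cdx2* and *Gata3* did not. *Hand1* passed through the 2 KO libraries of day 17 alone, *Krt7* through the 4 KO libraries of days 11 and 17, and *Eomes* through the 2 WT libraries of day 11. The third pair of day 1 took part in the common estimate of the spread, and without it the SE of *Krt8* was 0.0997 in place of 0.478, so calls are also given without that pair.

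Change in culture without the deletion was not used to choose the members, and was tested. From WT day 11 to WT day 25, *Krt7* fell by 1.01 in log2 units (SE 0.190, adjusted p = 0.00031 in limma) and *Tfap2c* fell by 0.93 (SE 0.192, adjusted p = 0.000793). Of all genes, 13.9% fell and 14.8% rose. The difference of *Eomes* was -1.52, a value given with no test, because the WT libraries of day 11 alone brought it past the filter. *Hand1* was 1.00 higher (adjusted p = 0.0534) and *Krt8* 0.88 higher (SE 0.478, adjusted p = 0.184) at day 25, and *Krt18* and *Krt19* differed by -0.31 and -0.13. Without the third pair of day 1, *Krt8* (adjusted p = 1.28e-07) and *Hand1* (adjusted p = 0.0166) also passed as higher at day 25 and *Krt18* (adjusted p = 0.0313) as lower, when 68.5% of all genes passed in either direction.

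From WT day 0 to WT day 9, limma called 0 of the 7 members and 0.0947% of all genes (528 genes had an unadjusted p below 0.05). The largest difference was that of *Eomes*, 0.51 higher at day 9 (SE 0.194, adjusted p = 0.679), followed by *Tfap2c* with 0.42 and *Krt19* with 0.41. Without the third pair of day 1, *Eomes* passed (adjusted p = 0.0248) and the other 6 did not, against 16.3% of genes. Between WT day 0 and WT day 9 themselves, no keratin difference thus passed under either fit. WT levels moved on the days between, which were not tested. *Krt8* was 4.78 and 5.37 RPKM in WT at day 0 and 11.5 and 13.1 at day 3. By day 9 it was 4.47 and 5.10. *Krt18* was 4.95 and 4.67, then 11.7 and 13.6, then 5.19 and 5.93 RPKM on these days. From day 11 to day 17 the WT mean went from 14.4 to 30.3 RPKM for *Krt8* and from 18.9 to 33.0 for *Krt18*, also not tested.

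The trophoblast stem cell regulators that are not members (16 genes, among them the Hippo pathway factors *Tead4*, *Yap1* and *Wwtr1* and the ligand *Bmp4*) were tested in the contrast between KO and WT. This list and those below were chosen with earlier results of these data known. Their calls and adjusted p-values therefore describe these data and are no independent support. Over the mean of days 3, 9, 11, 17 and 25, 3 of the 14 tested rose in KO and none fell, against 13.2% and 5.75% of all genes. *Id2*, an inhibitor of helix-loop-helix factors, rose by 1.16 (SE 0.217, adjusted p = 0.000378), *Arid3a* by 0.74 and *Sox21* by 0.70. At day 17 the same 3 were called, against 9.13% of all genes that rose, with *Arid3a* at 0.977 and 0.996 RPKM in the WT and up to 4.64 in the KO libraries. *Klf5* differed by -0.43 (adjusted p = 0.338). The list's median difference was 0.10 over these days, beside 0.06 for all genes. Without the third pair of day 1, 6 rose and 3 fell over these days, against 37.8% and 20.7% of all genes.

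At day 25, 1 gene of the list rose in KO (*Sox21*) and 3 fell (*Yap1* by 1.70, *Ets2* by 0.80 and *Wwtr1* by 0.44), against 9.6% and 11.3% of all genes, and the list median was -0.44 beside 0.13 for all genes. At day 17 the median was 0.58 beside 0.09. Without the third pair of day 1, 10 rose and none fell at day 17, against 29.3% and 11.7% of all genes, and 5 rose and 8 fell at day 25, against 39.8% and 26.1%. The difference between the 2 days was not tested.

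Of the placental trophoblast genes, 7 of 20 could be tested, and 5 of the 20 had at most 3 reads in every library. *Plac1*, an X-linked gene of the placenta, was 0.0726 and 0.120 RPKM in WT and 1.297 and 1.595 in KO at day 17, a difference of 1.57 over the 5 days. *Ascl2*, a factor of the spongiotrophoblast, differed by 0.74 over these days. Both passed the filter only through KO libraries (2 of day 17 for *Plac1*, 4 of days 11 and 17 for *Ascl2*), so their values are given with no test. Of the other 5, 1 rose and none fell over the 5 days, against 13.2% and 5.75% of all genes. This was *Plet1*, a surface protein of trophoblast precursors listed as *1600029D21Rik*, which rose by 0.38 (SE 0.101, adjusted p = 0.00911). When the third pair of day 1 was left out, 2 of the 5 rose and 1 fell, against 37.8% and 20.7%. *Bhlhe40* differed by -0.39 (adjusted p = 0.0657) and the syncytin gene *Synb*, listed as *D930020E02Rik*, by 0.39 (adjusted p = 0.402). *Tpbpa* and *Prl3d1*, which mark spongiotrophoblast and giant cells, had at most 1 and 3 reads in any library. The median of the 5 was 0.07, beside 0.06 for all genes.

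The other keratins were nearly silent, and 30 of 46 had at most 3 reads in every library. *Krt14*, a keratin of basal epithelia, was 0.0954 and 0.0960 RPKM in WT and 1.42 and 1.54 in KO at day 17, a difference of 1.72 over the 5 days. It passed the filter only through these 2 KO libraries, so no test is given for it. *Krt42* and *Krt17* differed by 0.56 and 0.46 (adjusted p = 0.110 and 0.279). Both passed without the third pair of day 1, when 37.8% of all genes rose.

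Genes of epithelial junctions had a median above that of all genes at day 17 and below it at day 25. The desmosome gene *Dsc2* passed the filter only through the 2 KO libraries of day 17 and is left out of the counts. At day 17, 5 of the other 16 rose and none fell, against 9.13% and 1.23% of all genes, with a list median of 0.49 beside 0.09. *Dsp*, which anchors keratin filaments to desmosomes, was 0.428 and 0.544 RPKM in WT and 2.12 and 2.16 in KO, a log2 difference of 1.94 (adjusted p = 1.10e-06). *Cldn3*, a claudin of tight junctions, rose by 1.76 and *Perp*, a desmosome protein and p53 target, by 1.75. At day 25, none rose and 5 fell, against 9.6% and 11.3%, and the list median was -0.50 beside 0.13. *Dsp* then fell by 1.48 (adjusted p = 3.75e-05), with 1.70 and 1.79 RPKM in WT and 0.529 and 0.597 in KO, and *Cldn3* fell by 0.85. Over the 5 days *Ocln*, a tight junction protein, rose by 0.56 (adjusted p = 0.00203), and the claudin *Cldn4* by 0.52, beside *Perp*, *Cldn3* and *Dsp*. With the third pair of day 1 left out, 12 rose and none fell at day 17, against 29.3% and 11.7% of genes, and 1 rose and 10 fell at day 25, against 39.8% and 26.1%. The difference between the 2 days was not tested.

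**Figure D5:**
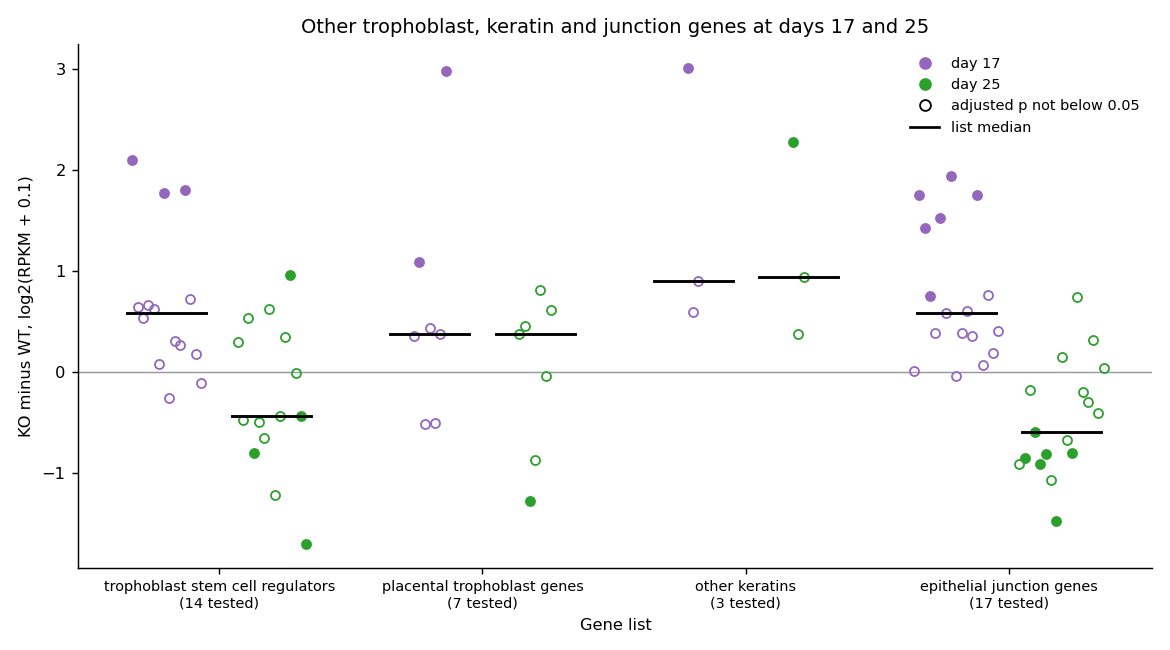
Difference between KO and WT in log2(RPKM + 0.1) for each tested gene of the 4 lists that hold no member, at day 17 (purple) and day 25 (green); filled points have a limma adjusted p below 0.05 and black bars are list medians, with *Plac1*, *Ascl2*, *Krt14* and *Dsc2* drawn although they passed the filter only through KO libraries. The medians of the stem cell regulators and junction genes are above 0 at day 17 and below 0 at day 25.

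Markers of other cell types were measured in the same libraries. The summed RPKM of 10 primitive endoderm markers, an epithelium that also uses simple keratins, was 22.4 to 25.6 in WT and 41.1 to 41.8 in KO at day 17, and 53.8 to 56.0 in WT and 79.8 to 101 in KO at day 11. At day 3 it was 67.1 to 71.4 in WT and 80.3 to 88.6 in KO, and at day 9 37.8 to 43.0 in WT and 70.9 to 72.9 in KO. At day 25, when the *Krt8* libraries overlapped, it was 38.3 to 40.9 in WT and 56.6 to 63.4 in KO. *Sparc* and *Col4a1*, genes of the basement membrane, carried most of the KO sums of days 17 and 25, with *Sparc* at 27.7 and 27.8 RPKM in KO at day 17 and at a mean of 37.1 at day 25, and *Col4a1* at a mean of 12.9 at day 25. At day 17, 1 of the 7 tested rose (*Sparc*) and none fell, against 9.13% and 1.23% of all genes. Differences were positive for 5 of the 7, among them *Gata6* (0.43) and *Pdgfra* (0.29), and negative for *Gata4* (-0.27) and *Dab2* (-0.47). The list median was 0.29 beside 0.09 for all genes. Without the third pair of day 1, 4 rose and none fell at day 17, against 29.3% and 11.7%. At day 25, 1 rose (*Sparc*) and 1 fell (*Pdgfra*, by 0.65), against 9.6% and 11.3% of all genes. *Lama1* (-0.92), *Dab2* (-0.64) and *Gata6* (-0.39) had negative differences, and the list median was -0.39 beside 0.13 for all genes. Without the third pair of day 1, 2 rose and 4 fell at day 25, against 39.8% and 26.1%. At day 9, 4 of the 7 rose and none fell, against 2.46% and 0.827% of all genes. All 7 differences were positive on that day, with a list median of 0.95 beside 0.02. Over the 5 days 3 rose and none fell, against 13.2% and 5.75%, and the list median was 0.18 beside 0.06. Without the third pair, 6 rose at day 9 and 4 over the 5 days, as did 1991 and 4385 of 11615 genes. With median centring, 1 and 2 rose. *Sox17*, *Sox7* and *Foxa2* did not reach 1 RPKM in any WT or KO library.

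The sum of 11 mesoderm markers was 0.505 to 0.606 in WT and 1.74 to 1.76 in KO at day 17, overlapped between the genotypes at day 25, and none of these markers passed the filter. The sum of 10 fibroblast markers was 21.4 to 24.2 in WT and 25.7 to 26.2 in KO at day 17, and overlapped at day 11, with 21.9 to 29.4 in WT and 17.8 to 30.6 in KO. It was 35.5 to 37.5 in WT and 45.2 to 45.4 in KO at day 3, and 45.5 to 47.7 in WT and 65.6 to 70.7 in KO at day 9. At day 25 it was 46.8 to 49.1 in WT and 52.1 to 52.6 in KO. The sum of the 10 pluripotent cell markers was 1234 to 1442 RPKM in WT and 1196 to 1233 in KO at day 17, and 936 to 966 in WT and 1247 to 1262 in KO at day 25. Of these, 2 rose at day 17 (*Fbxo15* by 1.601 and *Klf2* by 0.81) and none fell, against 9.13% and 1.23% of all genes. Without the third pair of day 1, 5 rose and 3 fell at day 17, against 29.3% and 11.7%. At day 25 *Fbxo15* rose by 2.44 and *Nanog* by 2.23 (adjusted p = 0.00326 in limma), and *Utf1* fell by 0.98, when 9.6% of all genes rose and 11.3% fell. Without the third pair of day 1, 5 rose and 1 fell at day 25, against 39.8% and 26.1%. The part of these cells in the keratin and regulator values was not tested.

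The *Dicer* KO library was set beside the 6 WT libraries of days 11, 17 and 25, which have a similar exon share, with no test because it has no replicate. *Krt8* was 90.9 RPKM in it, against 14.4 to 32.6 in the 6 WT libraries and at most 36.9 in any WT library. *Krt7* was 1.02 RPKM, against 0.151 to 0.424, and *Tfap2c* was 3.42 against 1.34 to 3.25. *Krt18*, the partner of *Krt8*, was within the WT range at 32.7 RPKM, so that the ratio of *Krt8* to *Krt18* was 2.78, above that of every WT and *Dnmt1* KO library. *Elf5* had 0 reads, and *Krt19*, *Hand1*, *Eomes*, *Cdx2* and *Gata3* lay within the WT range. The fibroblast markers summed to 311 RPKM in this library and the primitive endoderm markers to 151, both above all other libraries, and their part was not tested.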

How the data were processed

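The authors deposited a table of RPKM on a linear scale, with 1 column for each of 35 libraries. Per their processing notes, reads were trimmed with Trim Galore 0.3.5 and aligned with TopHat2 2.0.11 to NCBIM37, and the study's methods name quantitation in SeqMonk after removal of reads of low mapping quality. The methods name log2 RPM, but the file holds RPKM, so log2(RPKM + 0.1) was used. Reads were recovered with GENCODE exon lengths: between 99.5% and 99.7% of values under 20 reads were whole within 0.1. They gave depths, a floor of 3 reads and exact 95% intervals, which cover counting error only. The floor was applied per library.

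Genes above 1 RPKM in at least 2 WT or KO libraries were tested with limma 3.58.1 in R 4.3.3 (group means over 34 libraries, eBayes with a trend), adjusted after Benjamini-Hochberg over 11615 genes, and the functions were tested on simulated data. Older symbols came from RefSeq synonyms, and Python 3.11.15 was used for summaries. Members and lists were chosen with earlier results of these data known. Named genes were the members, *Dnmt1*, up to 4 genes a list with the largest mean difference over the 5 days, and the 5 most like *Krt18* and *Elf5*. Genes named beyond this rule (*Tpbpa*, *Prl3d1*, *Sox17*, *Sox7*, *Foxa2*, *Plet1*, *Cldn4*, *Yap1*, *Ets2*, *Wwtr1*, *Tead4*, *Bmp4*, *Dsc2*, *Klf2*, *Lama1*, *Dab2* and *Gata4*) were chosen after their values were seen. Alternatives were other pseudocounts, no filter, median centring, only the groups compared, voom on recovered reads, a replicate block, and leaving out libraries.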

Additional observations from a re-analysis of the deposited data

Results flagged for a closer look

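*Cdx2* and *Eomes* differed between KO and WT in opposite directions on different days, with no overlap between the libraries of a day. For *Cdx2* the log2 difference was 0.34 at day 0, 0.64 at day 9, 0.83 at day 11, 0.53 at day 17 and -2.52 at day 25. For *Eomes* the log2 difference was 0.19 at day 0, -0.22 at day 9, -0.24 at day 11, 0.60 at day 17 and 0.88 at day 25. Its intervals of 0.921 to 1.46 at day 0 and 0.699 to 1.06 at day 9 also show no difference beyond counting error. The order of the libraries turned between days 17 and 25, with no overlap on either day, for 26 of the 65 listed genes tested (40.0%), against 21.7% of all genes tested. Of the genes named in the text these were *Dsp* (1.94 and -1.48), *Cldn3* (1.76 and -0.85), *Cldn4* (1.43 and -0.18), *Perp* (1.75 and -0.20), *Dsc2* (1.52 and -0.81), *Ets2* (0.66 and -0.80), *Wwtr1* (0.18 and -0.44), *Bmp4* (0.64 and -0.47), *Gata6* (0.43 and -0.39), *Pdgfra* (0.29 and -0.65), *Klf2* (0.81 and -0.23), *Col1a1* (0.41 and -0.50) and *Synb* (-0.50 and 0.81). *Gata6* and *Pdgfra* are primitive endoderm markers, *Klf2* is a pluripotent cell marker, *Col1a1* is a fibroblast marker and *Synb* is listed as *D930020E02Rik*. The difference between days was not tested for any of them, and nothing is read from the shares.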

How the results depend on the processing

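The day values of the members kept their direction in every alternative that moved them beyond the spread between libraries (96 of 324 values). With 1 library left out, the sign turned in 20 of the 80 day values, all of them days on which the libraries overlapped. At days 11 and 25 these were *Elf5* at day 11 (-0.06 to 0.44) and *Hand1* (-0.51 to 0.39), *Gata3* (-0.92 to 0.37) and *Krt8* (-0.02 to 0.04) at day 25. The calls of the fits moved far more, and the cause was not tested.

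Genes called over days 3, 9, 11, 17 and 25 numbered 2196, of which 69.6% were higher in KO, and 6785 without the third pair, 6158 with only the groups compared, 4279 with each library centred on its median (47.5% higher), 4350 with no filter and 1321 with day 6 added as labelled. At days 1, 3, 6, 9, 11, 17 and 25 there were 1, 77, 330, 382, 653, 1204 and 2430 calls. Without the third pair there were 33, 1385, 3251, 3253, 4156, 4755 and 7655. With median centring there were 2, 237, 908, 948, 1650, 2293 and 5057, of which 47.8% were higher at day 17 against 88.1% before. With no filter there were 149, 543, 636, 1618, 2634 and 4050 from day 3 on.

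Over the 5 days and without the third pair, 6 of the 14 trophoblast stem cell regulators rose and 3 fell, against 37.8% and 20.7% of all genes. With median centring 3 rose and 2 fell, against 17.5% and 19.4%. With only the groups compared 8 were called in either direction, when 6158 of all 11615 genes were. *Plac1*, *Ascl2*, *Krt14* and *Dsc2*, which passed the filter only through KO libraries, are left out of the other counts. Without the third pair, 2 of the 5 placental genes rose and 1 fell. In the same fit 2 of the 2 other keratins rose, and 8 of the 16 junction genes rose and 3 fell. Other alternatives are not given for these 3 lists.

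For WT day 9 against day 0, 11 genes were called, and 1898 without the third pair, 2430 with only the groups compared, 131 with median centring and 7 with no filter or a pseudocount of 1. For WT day 25 against day 11, 3332 were called, and 7958, 7533, 5965 with median centring and 5111 with no filter. Leaving out 1 library gave 0 to 0 and 2060 to 2379 calls in these contrasts, 1835 to 2364 over the 5 days, 1 to 3 at day 1, 27 to 37 at day 3, 143 to 160 at day 6, 162 to 188 at day 9, 319 to 931 at day 11, 690 to 803 at day 17 and 1369 to 1638 at day 25. *Hand1* between WT days 11 and 25 (1.00) lay between 0.89 and 1.098 with 1 library left out, and passed in 6 alternatives.

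Samples with the same replicate number did not deviate together on each day (r between -0.16 and 0.26, except 0.78 to 0.91 at day 1). At day 1 the third pair stands apart, and both its libraries are of the high exon share. With 2 libraries a group on the other days, a low r cannot exclude a pairing. The number was not used as a pairing in the main fit. With a replicate block there were 6658 calls over the 5 days, 2, 1051, 2890, 2891, 3872, 4486 and 7433 at days 1 to 25, and 8, 5, 3 and 12 in the 4 lists in the order above. With the number as a block across days, an alternative chosen after seeing the data, there were 1721 and 7910 calls in the WT contrasts. At the lowest levels the depth is the limit, since 3 reads of *Elf5* correspond to between 0.00708 and 0.0210 RPKM.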
